A study of Rattus norvegicus with 8 samples.

Results

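The oligodendrocyte lineage and myelin genes were 30 genes chosen by name. A probe counted as a member if it was no control spot and its gene name on the array was one of the 30, which held for 41 of 30367 probes and 104 of 42877 spots. By role they were 19 genes of myelin and mature oligodendrocytes, 5 genes of precursor and newly committed cells, 3 lineage transcription factors, and 3 genes of receptors and adhesion. All 30 were well above background on all 8 arrays through at least 1 probe, and all 30 were among the 16574 genes tested of 26269 gene names on the array. A further 3 probes, 1 each for Fa2h, Nfasc and Olig2, were too dim to be tested, and 9 members had more than 1 probe.

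Oligodendrocytes wrap axons of the central nervous system in myelin, a compacted stack of membrane that is rich in particular lipids and proteins. They arise from precursor cells that persist in the adult brain, carry the receptor PDGFRA and the proteoglycan NG2, and pass through a short committed stage before they make myelin. The transcription factors OLIG2 and SOX10 are needed along this path, and MYRF, a factor switched on at differentiation, binds many myelin genes together with SOX10.

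RNA came from the hypothalamus of lactating Wistar dams at postpartum day 7, from 4 control dams and 4 dams exposed to TCDD, a dioxin that acts through the aryl hydrocarbon receptor. The sources used here do not give dose, route or timing of TCDD, the age of the dams or what the control dams received. The design text asks how the control and exposed dams differ. Each dam had 1 single-colour Agilent array of 60-base probes.

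All 8 neuropeptide genes looked up as a check of the tissue (Avp, Oxt, Pomc, Agrp, Hcrt, Pmch, Trh and Ghrh) were well above background on all 8 arrays. The arrays had 61.7% to 66.7% of their probes well above background, with the lowest share on TCDD replicate 1. All control arrays lay on 1 slide and all TCDD arrays on another, with separate scan times, so group and slide cannot be told apart. With 4 arrays a group, their number limits the precision.

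Levels are given as log2 signal relative to the 75th percentile of each array's probes, so that 0 is the 75th percentile. They compare arrays for 1 gene and do not rank genes. A log2 fold change is the TCDD mean minus the control mean, with its standard error (SE).

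Of the 30 members, 0 passed limma at an adjusted p under 0.05, where 0.0181% of all genes tested passed as higher in TCDD dams and 0% as lower. The smallest adjusted p in limma among the members was 0.249, for Olig2. Before adjustment, 2 members had a limma p under 0.05, against 11% of all genes in either direction. Of these 1 was higher in TCDD dams (Olig2), against 7.28% of all genes, and 1 was lower (Klk6), against 3.72%. The median log2 fold change of the 30 members was -0.059, with 20 below 0 and 10 above, against -0.0096 and 53.8% below 0 over all genes tested. Olig2 was also the single member whose control and TCDD arrays did not overlap, as 4.84% of all genes did with TCDD higher and 2.43% with TCDD lower. In RNA of a whole tissue piece, fewer cells of a type and less RNA per cell cannot be told apart.

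**Figure D1:**
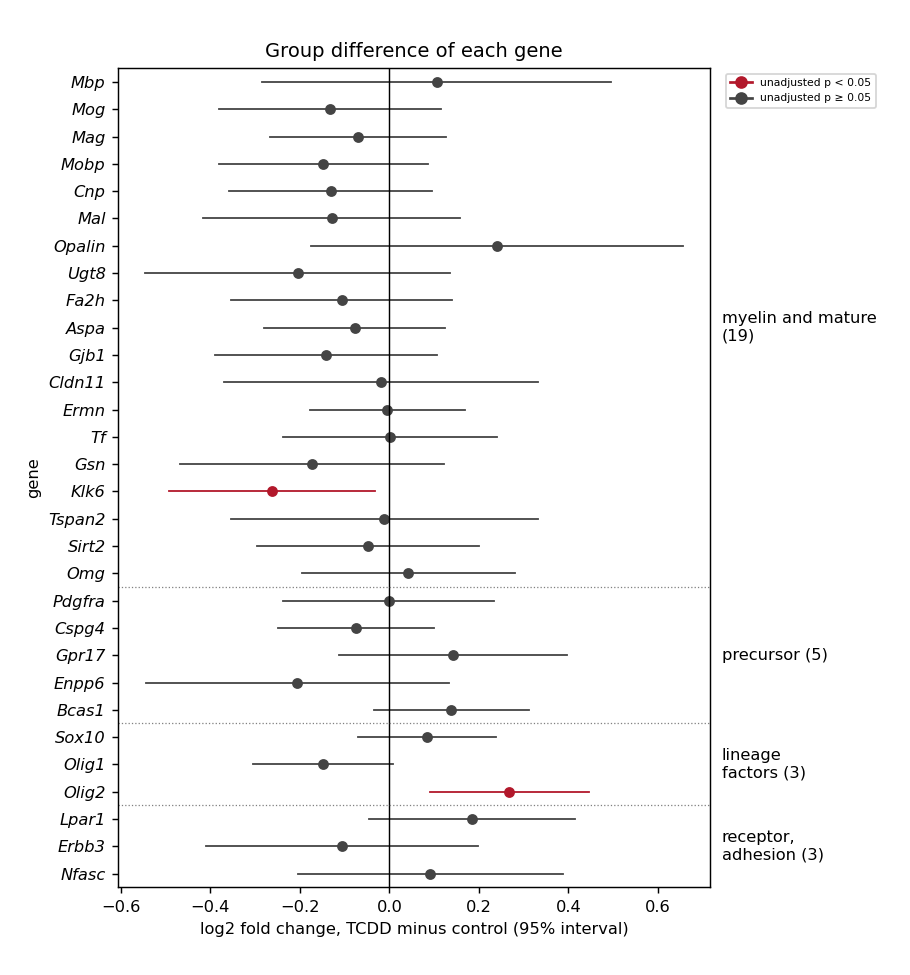
Log2 fold change of each of the 30 genes, TCDD minus control (horizontal axis), with its 95% interval from limma over 4 control and 4 TCDD arrays; genes are grouped by role and red marks an unadjusted p under 0.05. The intervals of Olig2 (0.09 to 0.45) and Klk6 (-0.49 to -0.03) leave out 0, and the other 28 include it.

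Among the 3 lineage factors, Olig2 and Olig1 differed in direction. Olig2, a helix-loop-helix factor needed to specify oligodendrocytes, stood at 1.41, 1.31, 1.20 and 1.53 log2 on control arrays 1 to 4 and at 1.68, 1.54, 1.63 and 1.68 on TCDD arrays 1 to 4. Each TCDD array was above each control array, the closest being control replicate 4 and TCDD replicate 2. The means were 1.36 ± 0.140 and 1.63 ± 0.0657 (SD, n = 4 each). The log2 fold change was 0.27 with an SE of 0.077 and a 95% interval from 0.09 to 0.45. In limma the unadjusted p was under 0.05 and the adjusted p = 0.249. The measured Olig2 probe lies at chr11:31208654-31208713 on rat build rn4, on the plus strand. The other Olig2 probe was too dim on all 8 arrays and gives no second reading.

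Olig1, the neighbouring gene of the same family, acts in oligodendrocyte maturation and had a probe printed in 10 spots. Its log2 signal was 3.39, 3.26, 3.42 and 3.23 in control dams and 3.23, 3.14, 3.07 and 3.27 in TCDD dams. The TCDD arrays were on the low side, but the lowest control array lay within their range. The difference was -0.15 on the log2 scale (SE 0.068, 95% interval -0.30 to 0.01), with adjusted p = 0.487 in limma. Sox10, which activates myelin genes, differed by 0.084 (SE 0.067; adjusted p = 0.714 in limma), with control replicate 4 the lowest array at 1.34 and TCDD replicate 2 the highest at 1.66.

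The 5 precursor and committed-stage genes had a median log2 fold change of -0.0016, 3 below 0 and 2 above. Pdgfra, the receptor for the growth factor that keeps precursors dividing, averaged 1.26 ± 0.0742 on control arrays and 1.26 ± 0.209 on TCDD arrays (SD, n = 4 each). Its log2 fold change was -0.0016, with a 95% interval from -0.24 to 0.23. Cspg4, which encodes NG2, had a log2 fold change of -0.075 (interval -0.25 to 0.10). For both genes TCDD replicate 2 was the highest of the 8 arrays, at 1.57 for Pdgfra and 1.16 for Cspg4. That array also had the highest signal for 8 of 8 meningeal fibroblast markers, a cell class in which Pdgfra is known to be expressed. The summed linear signal of those 8 markers, relative to the 75th percentile, ran from 2.99 to 8.58 on control arrays and was 2.21, 18.3, 2.86 and 2.82 on TCDD arrays 1 to 4. Pericyte and smooth muscle markers, a class in which Cspg4 is known, summed to 2.70 to 3.36 in control and 2.46 to 3.50 in TCDD dams over 8 of 8 measured genes. The part of these cells in the Pdgfra and Cspg4 values was not tested.

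Enpp6, a choline phosphodiesterase that marks newly forming oligodendrocytes, had the widest interval of the precursor genes. It stood at -1.95, -1.94, -1.92 and -2.37 log2 in control dams and at -2.55, -2.05, -2.37 and -2.04 in TCDD dams. Control replicate 4 lay with the lower TCDD arrays, apart from the other 3 controls. Group means differed by -0.21 log2 (SE 0.15; adjusted p = 0.678 in limma).

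Bcas1, which marks early myelinating oligodendrocytes, stood at 4.58, 4.55, 4.67 and 4.58 log2 in control dams and at 4.52, 4.79, 4.79 and 4.83 in TCDD dams. TCDD replicate 1 was the lowest of the 8 arrays and the other 3 TCDD arrays the highest. TCDD minus control was 0.14 log2 (SE 0.075; adjusted p = 0.578 in limma). A second Bcas1 probe gave 0.17 (SE 0.059), with an unadjusted p under 0.05 and adjusted p = 0.356 in limma over all probes tested. Gpr17, a receptor that is transient in committed precursors, differed by 0.14 log2 (SE 0.11; adjusted p = 0.710 in limma) and was lowest on TCDD replicate 1. It differed by 0.035 with normexp and by 0.24 without TCDD replicate 1. Without that array Gpr17 and Bcas1 (0.21) had an unadjusted p under 0.05 in limma, with adjusted p of 0.366 and 0.271. In that fit 11.7% of all genes had an unadjusted p under 0.05 in limma, in either direction. As TCDD replicate 1 is the lowest array for both genes, leaving it out raises TCDD minus control by construction. These values are a description and no support for a difference.

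Of the 19 myelin and mature genes, 15 had a log2 fold change below 0 and 4 above, with a median of -0.078 against -0.0096 over all genes. The count below 0 was 12 with the 75th percentile taken over probes with a gene symbol and 16 with quantile or median scaling. The median over all genes moved as well, to 0.012 with the symbol percentile and to -0.031 with median scaling. The myelin median minus that of all genes was -0.068 under both. At an unadjusted p under 0.05, 1 was lower (Klk6), and 0 passed limma after adjustment.

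Klk6, a secreted serine protease made by mature oligodendrocytes, stood at 1.14, 1.28, 1.06 and 0.84 log2 in control dams and at 0.82, 0.97, 0.74 and 0.74 in TCDD dams. The TCDD arrays lay below the first 3 control arrays, and control replicate 4 lay inside their range. The means were 1.08 ± 0.186 and 0.82 ± 0.107 (SD, n = 4 each), a TCDD level 0.834 times the control level. On the log2 scale this is -0.26 (SE 0.10, 95% interval -0.49 to -0.03), with an unadjusted p under 0.05 and adjusted p = 0.381 in limma. The Klk6 probe, at chr1:94261274-94261333 on the plus strand of rn4, was printed in 10 spots, whose median SD within an array was 0.0418 log2. The pooled SD between arrays of a group was 0.152 log2 for this gene, which holds both dam and array effects.

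Mobp encodes a small basic protein of compact myelin. Its brightest probe stood at 3.21, 3.18, 2.98 and 2.87 log2 in control dams and at 2.98, 3.07, 2.88 and 2.73 in TCDD dams, with the groups overlapping. The difference between groups was -0.15 (SE 0.10; adjusted p = 0.665 in limma). Both other Mobp probes were also lower in TCDD dams, with log2 fold changes of -0.19 (SE 0.090; adjusted p = 0.515 in limma) for the one nearest the 5′ end and -0.33 (SE 0.14; adjusted p = 0.451 in limma) for the one nearest the 3′ end. The latter had an unadjusted p under 0.05. All 3 Mobp probes thus had the same sign, and none passed after adjustment in limma over the 19102 probes tested.

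Ugt8 makes galactosylceramide, the main glycolipid of myelin. Its log2 signal was -0.73, -0.77, -1.08 and -1.40 in control dams and -1.24, -1.33, -1.13 and -1.09 in TCDD dams. Control replicate 4 was the lowest array and control replicates 1 and 2 the highest. Their means differed by -0.21 (SE 0.15; adjusted p = 0.680 in limma). Fa2h, which hydroxylates the fatty acids of these lipids, had -0.11 (interval -0.35 to 0.14), and Aspa, which frees acetate from N-acetylaspartate, had -0.078 (interval -0.28 to 0.12).

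For the genes of the structural myelin proteins the groups overlapped. Mbp, the basic protein that compacts the sheath, stood at 6.50 and 6.51 log2 on control replicate 1 and TCDD replicate 1 and at 6.86 to 7.14 on the other 6 arrays. Both low arrays have position 1 on their slide. They also had the lowest 75th percentile of signal before scaling, at 474 and 511 against 613 to 699 on the other 6. The part of position or signal level in the Mbp values was not tested. Mbp differed by 0.11 log2 between groups (SE 0.17; adjusted p = 0.876 in limma), and a second Mbp probe gave 0.044 (SE 0.081). Without both position 1 arrays the Mbp value was 0.14. Mog, the outermost myelin glycoprotein, had a log2 fold change of -0.13 and Mag, the adhesion molecule next to the axon, -0.070. Cnp, the phosphodiesterase of non-compact myelin, had -0.13 and Mal, a raft protein, -0.13. Opalin, a glycoprotein restricted to oligodendrocytes, had the widest 95% interval of all members, from -0.18 to 0.66 around 0.24. A second Opalin probe gave -0.018, the mean of both probes 0.11, and the brightest probe without control replicate 4 gave 0.080.

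The remaining myelin-group genes were spread on both sides of 0. The gap junction gene Gjb1 stood at -0.14 (TCDD minus control) and Cldn11, the tight junction protein of the sheath, -0.019. The cytoskeletal genes were Ermn at -0.0042, with 0.18 from a second probe, and Gsn at -0.17. Tspan2, a tetraspanin, had -0.011, the deacetylase Sirt2 -0.048, the glycoprotein gene Omg 0.042 and transferrin (Tf) 0.0014. The sign of Cldn11, Ermn, Tf, Tspan2 and Pdgfra changed with the scaling or background correction, so no direction is read for these 5. The limma adjusted p of the 18 myelin members other than Klk6 was at least 0.665.

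Of the receptor and adhesion genes, Lpar1, a receptor for lysophosphatidic acid on maturing oligodendrocytes, stood at -0.54, -0.70, -0.65 and -0.57 log2 in control dams and at -0.47, -0.20, -0.68 and -0.38 in TCDD dams. All TCDD arrays but replicate 3 were above all controls. The groups differed by 0.19 log2 (SE 0.10; adjusted p = 0.570 in limma). Erbb3, a receptor for neuregulins, had -0.10 (SE 0.13). Nfasc, whose glial form joins the sheath to the axon, had 0.092 (SE 0.13), and the mean of its tested probes gave -0.045.

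**Figure D2:**
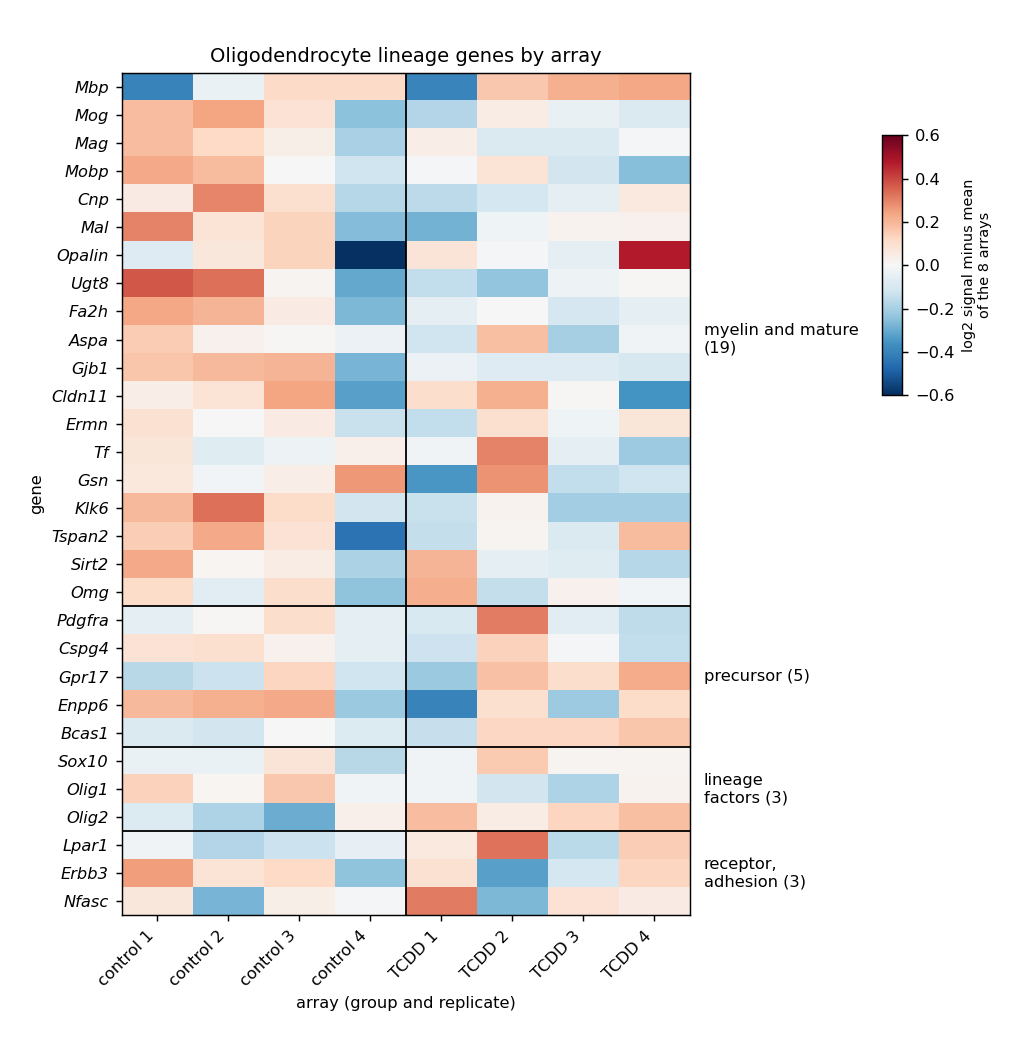
Deviation of each gene's log2 signal from its mean over the 8 arrays (colour, -0.6 to 0.6), for 4 control and 4 TCDD arrays (columns) and the 30 genes by role (rows). The control replicate 4 column is blue for 16 of the 19 myelin and mature genes.

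Control replicate 4 stood apart from the other controls for many myelin genes. It was the lowest of the 8 arrays for 10 of the 19 myelin and mature genes (52.6%), namely Mog, Mag, Cnp, Opalin, Ugt8, Fa2h, Gjb1, Tspan2, Sirt2 and Omg, against 13.7% of all genes tested. On that array 16 of the 19 were below their own mean over the 8 arrays, against 2, 4 and 2 on control replicates 1 to 3 and 14, 8, 15 and 12 on TCDD replicates 1 to 4. Of all genes tested, 49.9% were below their own mean on control replicate 4. It was the lowest array for 0 of the 5 precursor genes, although all 5 were below their mean there and on TCDD replicate 1.

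Single genes show the distance of this array from the other controls. Gjb1 stood at -2.52, -2.49, -2.48 and -2.96 log2 on control arrays 1 to 4 and between -2.78 and -2.72 on the TCDD arrays. Tspan2 was at 2.60 on control replicate 4 and at 2.90 to 3.27 on the other 7 arrays. Opalin was at 1.22 there against 1.75 to 2.30 elsewhere, and a second Opalin probe at -0.37 against 0.36 to 0.71. The 2 Opalin probes therefore read the same array as low at separate places in the transcript.

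A pair of the probes behind these readings is printed here because Gjb1 shows the low array plainly and the Mobp probe nearest the 5′ end is 1 of the 3 that read lower in TCDD dams. Each is given 5′ to 3′ as on the array, with its rn4 position; no letter is in capitals because no motif was marked. They are Gjb1 at chrX:89455686-89455745 (plus strand) and Mobp at chr8:125135770-125135829 (plus strand).
Gjb1: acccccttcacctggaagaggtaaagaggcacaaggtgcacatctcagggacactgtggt
Mobp: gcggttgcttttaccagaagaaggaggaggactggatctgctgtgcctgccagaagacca

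Averaged over the 19 myelin and mature genes, the level was 1.86, 1.85, 1.81 and 1.55 log2 on control arrays 1 to 4 and 1.65, 1.77, 1.67 and 1.70 on TCDD arrays 1 to 4. The first 3 controls were above every TCDD array and control replicate 4 was below every one. The means were 1.77 ± 0.147 for control and 1.70 ± 0.0493 for TCDD arrays (SD, n = 4 each), which differ by -0.067. The difference was -0.14 without control replicate 4, the control SD then being 0.0229. Since the genes were chosen with results known, no test was made of this mean.

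The precursor mean was 0.246 ± 0.0844 for control and 0.246 ± 0.151 for TCDD arrays (SD, n = 4 each), a difference of -0.00035. The lineage factor mean was 2.05 ± 0.0341 and 2.12 ± 0.0357, a difference of 0.068 with overlapping arrays. Myelin minus precursor level, taken within each array, was 1.61, 1.59, 1.47 and 1.41 log2 in control dams and 1.60, 1.35, 1.44 and 1.42 in TCDD dams. The group means of this difference were 1.52 ± 0.0969 and 1.45 ± 0.107, which differ by -0.066, less than either SD.

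**Figure D3:**
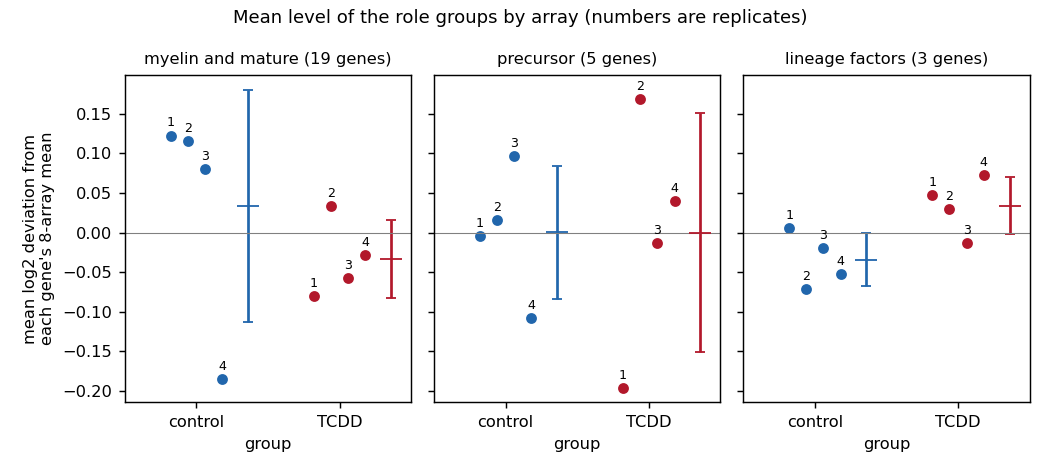
Mean deviation (log2) of the myelin and mature, precursor and lineage factor genes from each gene's 8-array mean, per array (points, numbered by replicate), with the group mean and SD (bars) of 4 control and 4 TCDD arrays. In the myelin panel control replicate 4 lies at -0.19, below the other controls at 0.080 to 0.12.

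Each array was left out in turn, and the fit without control replicate 4 is given because that array decides several values. Since it is the low control for many of these genes, leaving it out lowers TCDD minus control for them by construction, and the counts that follow are a description and no support for a difference. The median log2 fold change of the 19 was then -0.15, with 16 below 0, against -0.012 and 53.7% of all genes. At an unadjusted p under 0.05 in limma, 10 of the 30 members were lower (Mog, Mag, Cnp, Mal, Ugt8, Fa2h, Gjb1, Klk6, Enpp6 and Olig1), against 4.6% of all genes. Olig2 alone was higher, against 8.14%. Again 0 members passed after adjustment, the smallest adjusted p in limma being 0.0920 for Gjb1 at -0.26. Olig2 stood at 0.32 (adjusted p = 0.130) and Klk6 at -0.34 (adjusted p = 0.158) in that fit. No other single array, left out in turn, gave more than 3 members at an unadjusted p under 0.05.

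**Figure D4:**
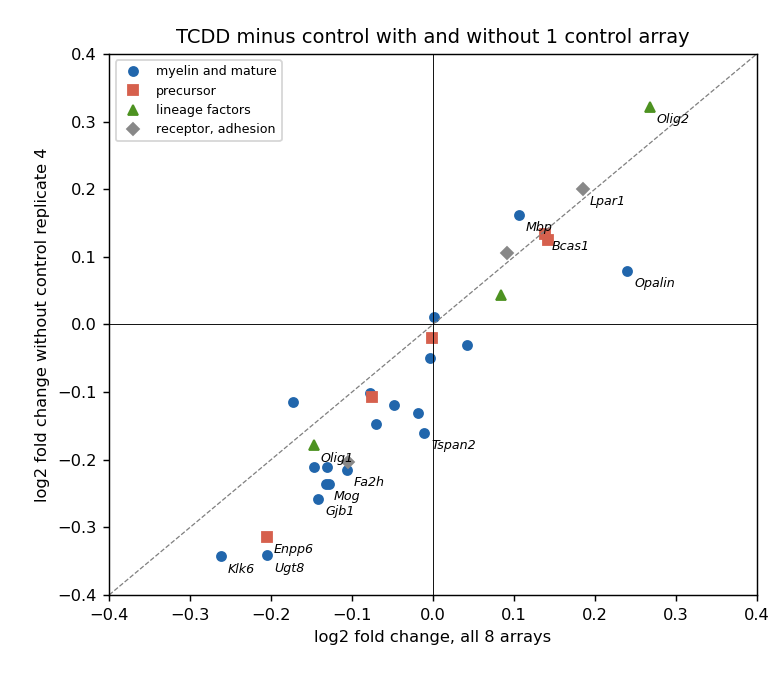
Log2 fold change of each of the 30 genes (TCDD minus control) with all 8 arrays (horizontal axis) and without control replicate 4 (vertical axis), with shape and colour for role and a dashed line of equal values. Most myelin points lie below the line: Gjb1 goes from -0.14 to -0.26 and Tspan2 from -0.011 to -0.16.

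Markers of other cell types moved on control replicate 4 as well. Over 8 of 8 measured neuron markers the summed linear signal was 59.3 on that array, against 66.0 to 73.0 on the other controls and 62.3 to 68.2 on TCDD arrays, and 5 of the 8 were lowest there. Over 8 of 8 astrocyte markers it was 167, the highest of all arrays, against 142 to 161 on the other controls and 149 to 162 on TCDD arrays. Of the 8 astrocyte markers 3 were highest on that array and 4 on TCDD replicate 2. Of the measured endothelial markers 4 of 7, and of the pericyte and smooth muscle markers 5 of 8, were also lowest on this array. The share over all genes tested was 13.7%. Microglial markers summed to 37.3 there and to 31.1 to 36.5 on the other 7 arrays. The part of the cell make-up of this sample in the myelin values was not tested.

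Genes shared with the myelin of peripheral nerve were looked at beside Gjb1. Of 8 Schwann cell and peripheral myelin markers 5 were measured, Gjb1 and Pmp22 among them, while the defining genes Prx and Drp2 were well above background on 0 arrays. Their summed signal was 2.67 to 3.56 in control and 2.64 to 3.41 in TCDD dams. Of the choroid plexus markers 3 of 8 were measured, and their sum ran from 1.90 to 4.19 in control and from 1.65 to 6.66 in TCDD dams.

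Other genes of the same stages were read from the same fit. Of 34 further myelin and mature oligodendrocyte genes 28 were tested, of which 15 were higher and 13 lower around a median of 0.0036. Before adjustment 1 of them was past p under 0.05, the membrane protein gene Tmem88b at -0.25 (SE 0.098; adjusted p = 0.395 in limma). Of all genes tested, 11% were past that p. Control replicate 4 was the lowest array for 15 of these 28 (53.6%), against 13.7% of all genes tested. Without it 16 were lower, against 53.7% of all genes. Of these, 4 had an unadjusted p under 0.05 in limma, against 4.6% of all genes. As that array is the low one for many of these genes, leaving it out lowers TCDD minus control by construction.

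Of 25 further precursor and early oligodendrocyte genes 20 were tested, 12 higher and 8 lower, with a median of 0.025 and 0 at an unadjusted p under 0.05 in limma. Among those with the smallest p were the SOX factor Sox11 at -0.19 (SE 0.11) and C1ql1, which encodes a secreted C1q-like protein, at -0.14 (SE 0.093). Control replicate 4 was the lowest array for 15% of these 20 genes, against 13.7% of all genes tested. With all arrays, 11% of all genes had an unadjusted p under 0.05 in limma. Of 29 genes of signals acting on the lineage 26 were tested, 17 higher and 9 lower, with a median of 0.035 and 0 at an unadjusted p under 0.05 in limma. The smallest p belonged to the fibroblast growth factor receptors Fgfr1 at -0.11 (SE 0.057) and Fgfr2 at 0.19 (SE 0.11) and to the retinoid X receptor gene Rxrg at 0.15 (SE 0.082).

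The promoters of the members were searched for short motifs of 3 factors of the lineage, on both strands of the 250 bases before the gene's start. The sequences are those of RefSeq on rat build GRCr8, in which 23 members have 25 promoters; Mog, Ermn, Bcas1, Sox10, Olig1, Lpar1 and Erbb3 had no entry. A SOX motif (ACAAAG or AACAAT) was in 8 of the 25 (32%) against 24.5% of all 33469 promoters. The E-box CAGCTG, a motif OLIG2 can bind, was in 4 (16%) against 12%. A MYRF motif (CTGGCAC or CTGGTAC) was in 7 (28%) against 5.48%, those of Cldn11, Cnp, Mag, Mal, Nfasc, Olig2 and Opalin. A match is a string of letters and shows no binding, and no match of 1 motif overlapped a match of another in the promoters printed here.

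The promoters printed are those of Olig2 and Klk6, the members with an unadjusted p under 0.05, and of Opalin and Mal, myelin genes low on control replicate 4 that hold a MYRF motif. Mal was at 0.68 log2 on that array and lower still, at 0.66, on TCDD replicate 1. Mag and Cnp were lowest on control replicate 4 and also hold a MYRF motif, but are not printed. Gjb1, Tspan2, Ugt8, Fa2h, Sirt2 and Omg were lowest there too, and their promoters held none of the motifs searched. Each printed promoter is the 250 bases before the start, 5′ to 3′ on the gene's strand, with the motifs in capitals. Olig2 lies at chr11:43961335-43961584 (plus strand), Klk6 at chr1:103415266-103415515 (plus), Opalin at chr1:249858191-249858440 (minus) and Mal at chr3:135341424-135341673 (minus).
Olig2: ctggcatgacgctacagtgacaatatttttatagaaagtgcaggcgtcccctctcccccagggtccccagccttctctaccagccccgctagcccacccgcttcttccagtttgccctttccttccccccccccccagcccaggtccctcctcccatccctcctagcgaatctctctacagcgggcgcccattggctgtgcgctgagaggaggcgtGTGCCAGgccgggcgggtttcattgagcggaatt
Klk6: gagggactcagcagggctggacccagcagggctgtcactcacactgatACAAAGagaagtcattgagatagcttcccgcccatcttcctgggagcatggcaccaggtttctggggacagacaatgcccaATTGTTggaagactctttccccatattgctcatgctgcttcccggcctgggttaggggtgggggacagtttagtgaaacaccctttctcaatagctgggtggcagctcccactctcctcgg
Opalin: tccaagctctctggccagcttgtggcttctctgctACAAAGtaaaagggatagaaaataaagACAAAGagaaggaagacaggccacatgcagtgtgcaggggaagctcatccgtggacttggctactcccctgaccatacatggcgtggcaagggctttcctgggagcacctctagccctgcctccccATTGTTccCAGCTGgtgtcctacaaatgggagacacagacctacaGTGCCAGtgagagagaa
Mal: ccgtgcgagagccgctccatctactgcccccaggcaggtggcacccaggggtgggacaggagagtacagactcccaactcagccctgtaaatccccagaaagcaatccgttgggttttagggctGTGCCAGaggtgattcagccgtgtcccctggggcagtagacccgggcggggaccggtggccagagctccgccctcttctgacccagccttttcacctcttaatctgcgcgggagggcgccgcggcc

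Counted from the start, the Olig2 promoter has a MYRF motif on the opposite strand at -34 to -28, and the Mal promoter has the same letters at -126 to -120. The Klk6 promoter has SOX motifs at -202 to -197 and -121 to -116. Opalin, which encodes a glycoprotein confined to oligodendrocytes, was the printed promoter with all 3 kinds: SOX motifs at -215 to -210, -188 to -183 and -62 to -57, the E-box at -54 to -49 and the MYRF motif at -17 to -11. The group difference of the genes with a MYRF motif ranged from -0.13 for Cnp and Mal to 0.27 for Olig2 on the log2 scale.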

How the data were processed

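Per the file headers, spot intensity on a linear scale was read with Agilent Feature Extraction 10.7.1.1, and the processed signal used here was background-subtracted and spatially detrended within each array; rn4 probe positions and the well-above-background and outlier flags, coded 0 or 1 and treated as other values, come from the same deposited files. The authors also deposited a table of normalized intensity, with a median of 65.1 in every column and r of at least 0.999 against the scanner values on the log2 scale; its scale is linear, it is not centred on 0, and it served as an alternative. Per the labels' protocols, RNA was column-purified and Cy3-labelled cRNA was made from it.

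The 1377 control spots were left out. Spots marked as outliers were also left out, unless all spots of a probe were so marked on an array. Such a probe kept them, so a probe printed in 1 spot never lost its value. Spots of a probe were averaged as log2, and each array's 75th percentile over probes was subtracted. A probe was tested if well above background (in at least 0.5 of its spots) on all 4 arrays of at least 1 group. A gene took its brightest tested probe. Groups were compared with limma 3.58.1 in R 4.3.3 (lmFit, eBayes, 2-sided, group alone), with Benjamini-Hochberg adjustment over 16574 genes, a threshold of 0.05 and no fold cut-off. The test was checked on simulated data with 200 genes changed. It recovered 56.7% of those changed by 0.5 log2 and 94.0% of those changed by 1, with 13 false calls. The simulated noise was drawn independently for each gene and array, without effects shared by a slide or an array. These rates may therefore not hold for the real comparison. Changes as small as those of the 30 members (-0.26 to 0.27) were not simulated. Tables and figures used Python 3.11.15, pandas 2.3.3 and matplotlib 3.10.9.

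Members, lists, motifs and the naming rule were chosen with earlier results of these data known, and the neuropeptide check was added last. The rule named every member, gave per-array values for those at an unadjusted p under 0.05, filled to 8 by p, and named in the other lists the genes at that p or else the 3 with the smallest p. Alternatives concerned background correction (normexp, offset 50), scaling, the authors' table, the filter, averaging of a gene's probes, a mean-variance trend, array weights, a replicate block and arrays left out. Exon and UTR positions of the probes are not given, since no genome was used. A few genes and a sequence that the rules would name are not reported here.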

Additional observations from a re-analysis of the deposited data

Results flagged for a closer look

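In 6 of 60 groups of 4 arrays, 2 groups for each of the 30 genes, 1 array stood apart from the other 3: its gap to the nearest of them, as a share of the group's range, was above Dixon's 95% critical value. Chance flags about 1 in 20 groups.

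TCDD replicate 1 was the low array for 3 genes. For Mbp its gap was 0.890 of the range, at 6.51 against 7.07 for the next TCDD array. For Bcas1 it was 0.868, at 4.52 against 4.79, and for the raft protein gene Mal it was 0.833, at 0.66 against 0.92. Without TCDD replicate 1 the log2 fold change of Mbp was 0.26 and that of Bcas1 0.21, while that of Mal was -0.056 in place of -0.13.

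Control replicate 4 was the low array for 2 genes. For Enpp6 the gap was 0.931 of the range, at -2.37 against -1.95 for the next control, and for the gap junction gene Gjb1 it was 0.921, at -2.96 against -2.52. For Gpr17, control replicate 3 was the high array, with a gap of 0.845, at -3.43 against -3.68.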

How the results depend on the processing

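Under 20 alternatives, 0 values of a member passed limma, and 20 of the 30 members kept their sign in every one. Over all genes, the number passing was 3, and it was 22 with normexp, 0 with no filter on dim probes (2008 at an unadjusted p under 0.05), 28 with probes well above background on all 8 arrays, 34 with a mean-variance trend and 102 with array weights. It ran from 0 to 9 with arrays left out. The number of members at an unadjusted p under 0.05 was 2, and it was 5 with array weights and from 1 to 11 with arrays left out. The 11 came without control replicate 4, and 1 each without control replicate 1, 2 or 3. Of all genes, 12.7% were at that p without control replicate 4 and 14.3% with array weights. The replicate number is also the position on the slide. To compare arrays of the same number, each gene's group mean was first subtracted. Over all genes, these deviations had correlations of 0.228, -0.0031, -0.045 and 0.103 between the control and TCDD arrays of replicates 1 to 4. Only control replicate 1 was best matched by the TCDD array of its own number. The replicate block gave 0 genes past the threshold (2107 at an unadjusted p under 0.05) and 3 members at that p (Olig2, Klk6 and Mobp). With the block the SE went from 0.17 to 0.054 for Mbp and from 0.18 to 0.23 for Opalin. The myelin median was -0.15 to -0.040 with arrays left out.

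Signs turned for Cldn11 (0.0032 with normexp, 0.0023 with the symbol percentile), Tf (-0.017 with quantile scaling, -0.019 with median scaling, -0.017 with the authors' table, -0.011 with array weights), Ermn (0.017 with the symbol percentile, 0.086 with the mean of probes), Tspan2 (0.010) and Pdgfra (0.020) with the symbol percentile, and Nfasc (-0.045) with the mean of probes. With arrays left out the ranges that crossed 0 were -0.010 to 0.26 for Mbp, -0.24 to 0.022 for Mal, -0.13 to 0.098 for Cldn11, -0.050 to 0.075 for Ermn, -0.097 to 0.074 for Tf, -0.16 to 0.082 for Tspan2, -0.12 to 0.020 for Sirt2, -0.031 to 0.097 for Omg and -0.10 to 0.050 for Pdgfra. The cause of these changes was not tested. All 30 genes were flagged as well above background on every array, but that flag does not free a fold change from the background correction. With normexp the value of Gpr17 went from 0.14 to 0.035 and that of Enpp6 from -0.21 to -0.10. Those of Erbb3 (-0.10 to -0.11) and Gjb1 (-0.14 to -0.15), also dim genes, changed little. With 4 dams a group the precision is limited, and slide and group cannot be told apart.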

Other observations

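Members printed in 10 spots give the noise between spots of 1 array. For Fa2h, Ermn, Klk6, Pdgfra, Cspg4 and Olig1 the median SD between spots of an array was 0.0358 to 0.0495 log2, and the pooled SD between arrays of a group was 0.0909 to 0.166 log2. With 1 array for each dam, the second spread holds labelling and array effects as well as differences between dams, which cannot be told apart.

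Genes of several roles were highest on TCDD replicate 2. Pdgfra, Cspg4, Tf, Gsn, Ermn, Sox10, Lpar1 and Aspa were the 8 of 30 members with their highest signal there, as were 2189 of all 16574 genes tested. On control replicate 1, 7 members were highest, as were 3102 of all genes tested. TCDD replicate 2 was singled out after its values were seen.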
